A study of Mus musculus with 11 samples.

Results

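Tuft cell genes were described as 7 genes, *Dclk1*, *Pou2f3*, *Trpm5*, *Il25*, *Alox5*, *Gfi1b* and *Sh2d6*, which were chosen by name out of the 45777 genes of the expression table. All 7 were found. RNA of skin and small intestine from BALB/c mice, female or male and 8 to 10 weeks of age, was sequenced after a daily dose of 62.5 mg of cream on the shaved back and right ear. Imiquimod (IMQ), a ligand of the receptor TLR7 that induces psoriasis-like dermatitis, made up 5% of the cream in IMQ-treated mice, and control mice received Vaseline as the vehicle. The treatment lasted 5 to 8 days by the sample annotation, which does not give the days of each mouse or which tissues came from one mouse, and the methods state the back alone. There were 3 control (replicates 7 to 9) and 2 IMQ (replicates 10 and 11) libraries of small intestine, and 3 control (1 to 3) and 3 IMQ (4 to 6) libraries of skin, with 44995414 to 58526384 counts each.

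Tuft cells are rare chemosensory cells of the intestinal epithelium. They detect succinate and other luminal signals through receptors coupled to a taste-type cascade that opens the cation channel TRPM5, and they release IL-25 and cysteinyl leukotrienes. IL-25 acts on group 2 innate lymphoid cells, whose IL-13 acts on epithelial progenitors so that more tuft and goblet cells are made. POU2F3 is the transcription factor needed to form tuft cells, GFI1B is a zinc-finger repressor found in tuft cells and also in erythroid cells and megakaryocytes, DCLK1 is a kinase used as a tuft cell marker, ALOX5 is the lipoxygenase that starts leukotriene synthesis, and SH2D6 is an adaptor protein.

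The small intestine libraries held RNA of the whole tissue, in which fewer cells of a type and less RNA per cell cannot be told apart. On the FPKM scale, which corrects for transcript length, the levels in control small intestine were low and ran from *Trpm5* (1.47 ± 0.760, SD, n = 3) over *Alox5* (1.23 ± 0.608), *Dclk1* (0.769 ± 0.118), *Sh2d6* (0.621 ± 0.829) and *Pou2f3* (0.140 ± 0.115) to *Gfi1b* (0.0918 ± 0.0607), with *Il25* at 0. In control skin the order was another, from *Pou2f3* (31.0 ± 8.62) over *Dclk1* (8.22 ± 2.32), *Alox5* (5.41 ± 1.36), *Sh2d6* (0.206 ± 0.201), *Il25* (0.144 ± 0.198) and *Gfi1b* (0.0784 ± 0.0739) to *Trpm5* (0.00661 ± 0.0115). Only the steps from *Pou2f3* to *Dclk1* and from *Alox5* to *Sh2d6* in skin exceeded the summed SDs of the neighbours, and among the small intestine genes above 0 no neighbouring pair did.

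**Figure D1:**
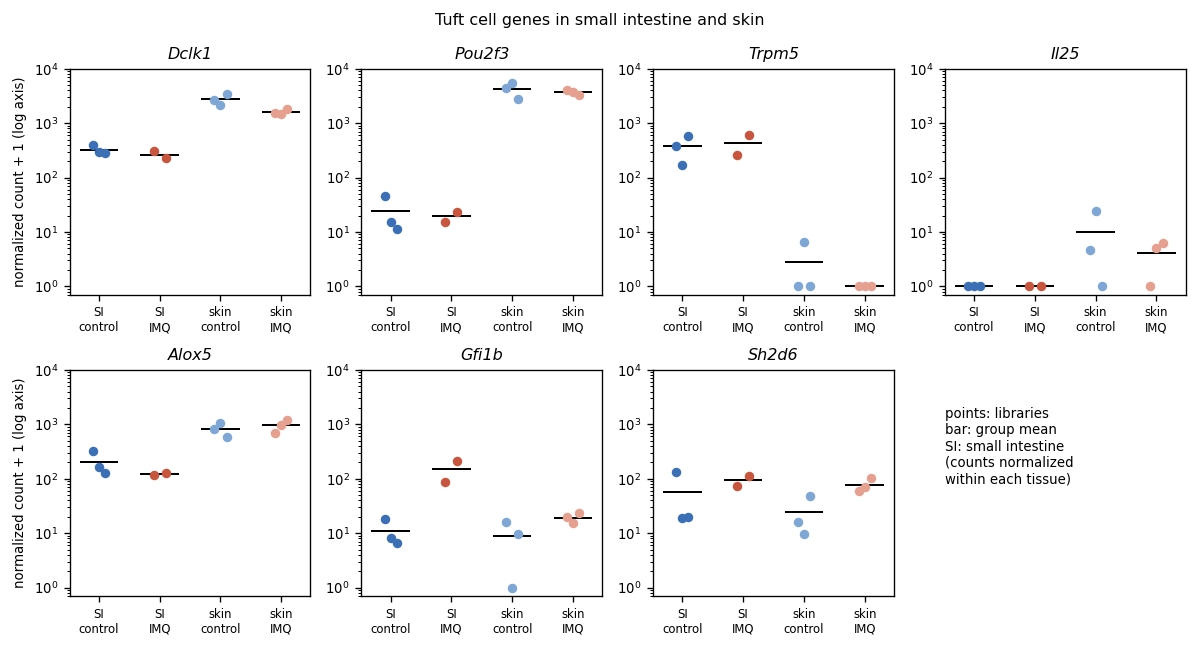
Normalized counts plus 1 (log axis) of the 7 genes in the 11 libraries, by tissue and treatment, with each point a library and each bar a group mean. *Gfi1b* is the gene whose 2 IMQ libraries of small intestine lie far above the 3 controls, and *Trpm5* is at 0 in all but 1 of the skin libraries.

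*Gfi1b* was the member that rose in the small intestine under IMQ. It had 17.4, 7.06 and 5.54 normalized counts (counts scaled to a common library size within a tissue) in controls 7 to 9, and 87.1 and 213 in IMQ 10 and 11. Both IMQ libraries lay above every control library, as was so for 15.1% of all genes tested, and IMQ 11 stood above IMQ 10. The group means were 9.98 ± 6.43 (SD, n = 3) and 150.0 ± 88.9 (n = 2), a ratio of 15, and the log2 fold change was 3.91 (SE 0.58, edgeR's quasi-likelihood test, Benjamini-Hochberg adjusted p = 0.0134). Of the 6 members that could be tested 1 was called, where 2.95% of the 19965 genes tested were called (2.77% as higher and 0.170% as lower). The call was lost without control 8 (adjusted p = 0.0529), control 9 (0.0675) or IMQ 11 (0.0705), with log2 fold changes of 3.13 to 4.55 over the libraries left out, and limma on log2(FPKM + 1) gave 1.10 with an adjusted p of 0.0729.

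*Gfi1b* lies on chromosome 2 at 28609450 to 28621982 of GRCm38.p6, on the minus strand. Its promoter is shown because it is the member that changed, with the letters TGATAA and AAATCA, which contain cores of sites of GATA and GFI factors, in capitals. It covers chr2:28621933-28622232 from 250 bases before to 50 after the start site, read 5′ to 3′ on the minus strand and taken from RefSeq.

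Gfi1b: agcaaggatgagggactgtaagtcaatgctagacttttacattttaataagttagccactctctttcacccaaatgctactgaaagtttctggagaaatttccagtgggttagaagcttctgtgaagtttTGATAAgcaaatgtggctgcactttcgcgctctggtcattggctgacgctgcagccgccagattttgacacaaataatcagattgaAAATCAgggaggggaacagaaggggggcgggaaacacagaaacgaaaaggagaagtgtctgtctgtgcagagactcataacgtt

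The letters TGATAA began 120 bases before the start site and those of AAATCA 34 bases before it. On either strand they were found in 9.05% and 14.0% of 32851 RefSeq promoters of this length. Promoters of 5 members (6 windows, since *Dclk1* has 2) could be read. AAATCA was also in the promoter of *Dclk1* that starts at 55461478 of chromosome 3, whereas AGATAA (in 11.2% of all promoters) and the octamer ATGCAAAT of POU factors (in 1.74%) were in none of the 6. The motifs do not share letters in the *Gfi1b* window, and a match describes letters and not a bound site.

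Since *Gfi1b* is also used by blood cells, markers of other cells were measured in the same libraries. The summed normalized count of 7 erythroid markers was 2455 to 6158 in controls and 13314 and 4290 in IMQ 10 and 11, with none at 0 in IMQ 10 and 1 of 7 at 0 in each other library, and 0 of the 6 tested were called. This sum, most of it from hemoglobin genes, was highest in IMQ 10. *Klf1*, an erythroid transcription factor, had 5.04 to 6.51 in controls and 6.35 and 11.1 in IMQ 10 and 11. Like *Gfi1b*, it was highest in IMQ 11. The sum of 6 megakaryocyte markers was 1419 to 2499 in controls and 1433 and 1012 in IMQ libraries, with 1 to 3 of the 6 at 0 in each library and *Pf4*, a platelet chemokine, at 68.3 to 75.6 in controls and 34.5 and 22.2 in IMQ libraries.

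Sums of macrophage and neutrophil markers were, like *Gfi1b*, higher in both IMQ libraries than in any control. Unlike *Gfi1b*, each sum was near equal in IMQ 10 and 11. The sum of 7 macrophage markers was 14963 to 22132 in controls and 35339 and 36801 in IMQ libraries, none was at 0, and 4 of 7 were called higher. The groups overlapped for *Csf1r*, *Lyz2* and *Mrc1*. The sum of 6 neutrophil markers was 164 to 267 in controls and 1703 and 1701 in IMQ libraries, with at most 1 of 6 at 0, and 2 of the 4 tested were called higher. Most of that sum was *Csf3r* (134 to 225 in controls, 1644 and 1596 in IMQ 10 and 11). *Csf3r*, *S100a9* and *Mmp8* lay above the controls in both IMQ libraries, and *S100a8*, *Cxcr2* and *Ly6g* overlapped. The sum of 9 mast cell markers was 3191 to 12996 in controls and 3513 and 3483 in IMQ libraries, with 0 of 9 called. The part of erythroid cells, megakaryocytes, macrophages, neutrophils and mast cells in the result for *Gfi1b* was not tested.

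**Figure D2:**
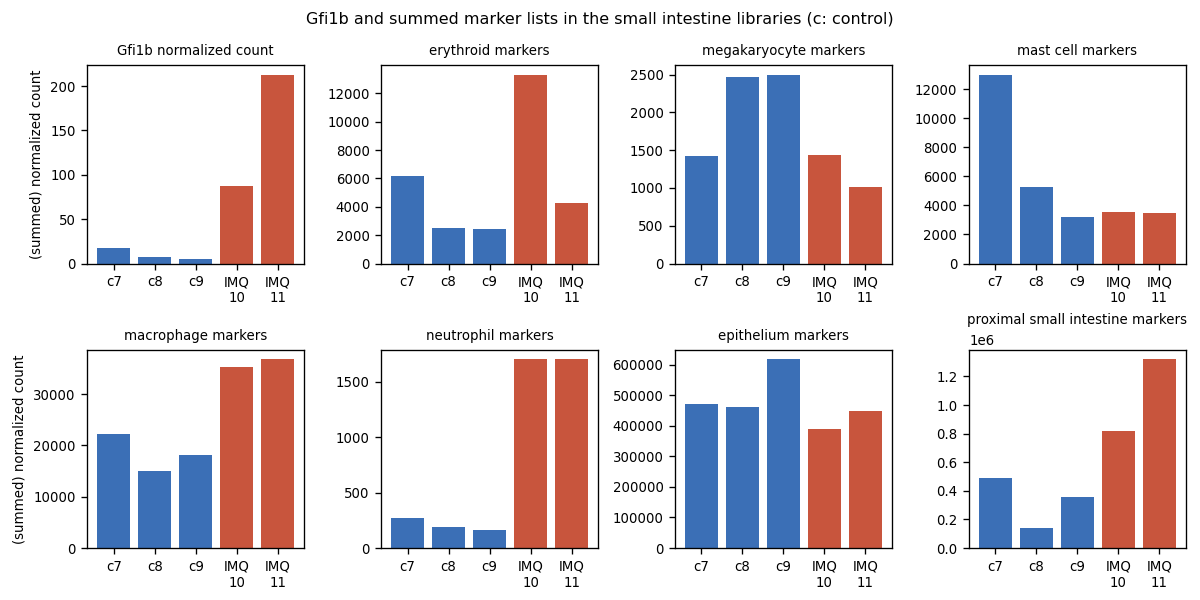
Normalized counts of *Gfi1b* and summed normalized counts of 7 marker lists (linear axes from 0) in the 3 control (blue) and 2 IMQ (red) libraries of small intestine. The macrophage, neutrophil and proximal small intestine sums are higher in both IMQ libraries than in any control, the erythroid sum is highest in IMQ 10, and the mast cell sum is highest in control 7.

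*Pou2f3* (chromosome 9, 43123927 to 43205755, minus strand), the factor that tuft cells need, was read by few counts in the small intestine. It had 44.5, 14.1 and 10.2 normalized counts in controls 7 to 9, and 14.5 and 22.2 in IMQ 10 and 11. The IMQ values lay within the range of the controls, and control 7 stood above the rest. The log2 fold change was −0.31 (SE 0.65, adjusted p = 0.918 by edgeR) and was 0.59 without control 7.

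*Trpm5* (chromosome 7, 143071529 to 143094642, minus strand), the channel of the taste-type cascade, had 383, 166 and 590.1 normalized counts in controls 7 to 9, and 256 and 597 in IMQ 10 and 11. High and low libraries were found in both groups, which overlapped. The log2 fold change was 0.16 (SE 0.54, adjusted p = 0.953 by edgeR), and it fell to −0.19 without control 8 and to −0.57 without IMQ 11.

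*Dclk1* (chromosome 3, 55242303 to 55539068, plus strand) had 395, 288 and 284 normalized counts in controls 7 to 9, and 305 and 224 in IMQ 10 and 11. The groups overlapped, and the lowest value was that of IMQ 11, with a log2 fold change of −0.28 (SE 0.25, adjusted p = 0.765 by edgeR). *Dclk1* is also known in neurons. The sum of 6 enteric neuron markers was 1233 to 1686 in controls, 1620 in IMQ 10 and 1033 in IMQ 11, and that of 5 smooth muscle markers was 40960 to 62078, 72045 and 23057, so both sums were also lowest in IMQ 11. None of these markers was at 0, and the part of nerve and muscle in the *Dclk1* level was not tested.

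*Alox5* (chromosome 6, 116410071 to 116461178, minus strand) had the lowest log2 fold change of the members, without passing the test. It had 318, 160.3 and 127 normalized counts in controls 7 to 9, and 119 and 125 in IMQ 10 and 11. Both IMQ libraries lay just below the lowest control, as was so for 13.9% of all genes tested, and the log2 fold change was −0.72 (SE 0.42, adjusted p = 0.586 by edgeR). *Alox5* is also used by mast cells and other leukocytes, and control 7, highest in *Alox5*, was also highest in the mast cell sum (12996 against 3191 to 5262 in the other 4 libraries). The part of mast cells in this value was not tested.

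*Sh2d6* (chromosome 6, 72513641 to 72534206, minus strand) had 135, 18.1 and 18.5 normalized counts in controls 7 to 9, and 73.5 and 112 in IMQ 10 and 11. The IMQ libraries lay between control 7 and the other 2 controls, which they exceeded. With all 5 libraries the log2 fold change was 0.71 (SE 0.84, adjusted p = 0.838 by edgeR), and without control 7 it was 2.33 (adjusted p = 0.0241), so 1 library decided the call. Control 7 had 7.41 times the normalized count and 10.6 times the FPKM of control 8.

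*Il25* (chromosome 14, 54932695 to 54935837, plus strand), the cytokine of the tuft cell circuit, had 0 counts in all 5 libraries of the small intestine and was not tested there. A count of 0 allows a level of up to 0.0513 to 0.0625 CPM (counts scaled to a common total of reads) in these libraries (3 counts), for counting error only. In the skin it had 4, 21 and 0 counts in controls 1 to 3, and 0, 4 and 5 in IMQ 4 to 6. The groups overlapped, and without the filter on low counts the log2 fold change in skin was −1.42 (SE 1.52, adjusted p = 0.629 by edgeR).

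Control 7 was high in several tuft cell genes at once. Over the members and the other tuft cell genes tested that leukocytes do not share, its normalized count was at least 2 times the mean of controls 8 and 9 in 11 of 34 genes (32.4%), against 2.73% of all genes tested. The median ratio was 1.36, against 0.996 for all genes. Values for single genes, picked after they were seen, were 7.35 for *Sh2d6*, 6.75 for the related adaptor gene *Sh2d7*, 3.66 for *Pou2f3*, 2.75 for *Avil*, which encodes advillin of the tuft cell cytoskeleton, and 2.06 for *1810046K07Rik*, a coactivator of POU2F3. The ratio was 1.38 for *Dclk1*, near the median of the set, and 1.01 for *Trpm5*, which did not follow. Control 7 was the highest of the 5 libraries for 4 of the 6 members with counts, and for 19.9% of all genes. Its mast cell sum (12996 against 5262 and 3191 in controls 8 and 9) and its sum of 5 enteroendocrine markers (15475 against 10388 and 8732) were also the highest of the controls, with no marker at 0, and *Alox5* and *Ltc4s*, both among the 11 genes, are used by mast cells too. The part of these cells in the values of control 7 was not tested.

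**Figure D3:**
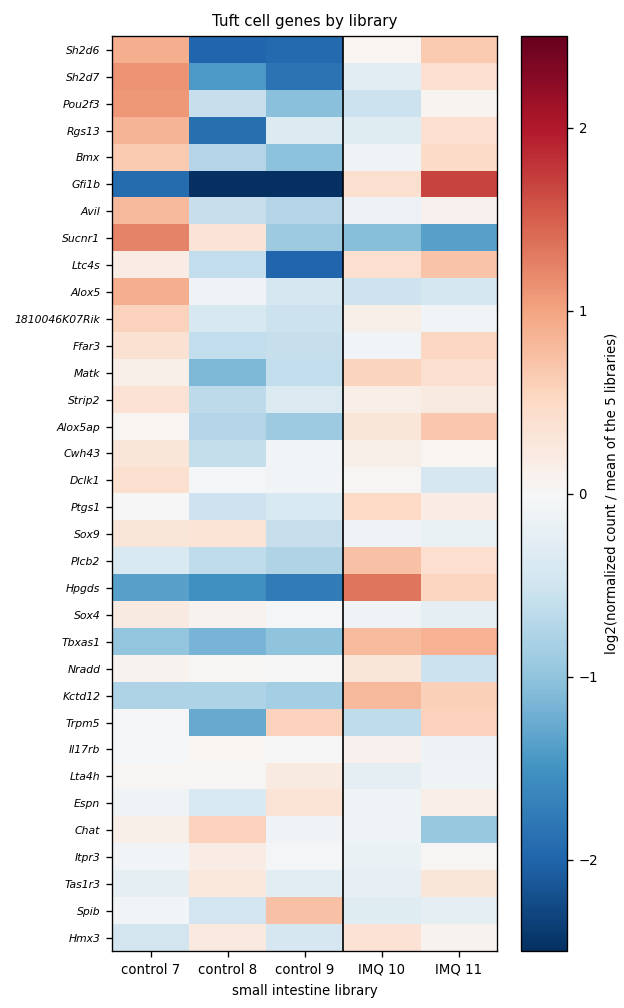
Log2 of the normalized count over the mean of the 5 small intestine libraries (colour) for the 6 members with counts and 28 other tuft cell genes, ordered by the ratio of control 7 to controls 8 and 9. The upper rows are red in control 7 and blue in controls 8 and 9, *Gfi1b* is high only in IMQ 10 and 11, and its values in controls 8 and 9 lie beyond the colour scale.

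The other genes of the tuft cell were taken from 5 lists of 45 genes, of which 44 were in the table and 38 could be tested in the small intestine. Of these lists, 1 was set apart as shared with leukocytes. For the other 4 lists, 4 of 28 genes rose, 0 fell and 24 did not pass the test. Of all genes tested 2.77% rose and 0.170% fell. The median log2 fold change of the 28 was 0.17, against −0.022 for all genes. By edgeR, these were *Plcb2* of the taste-type cascade (1.17, SE 0.17, adjusted p = 0.0122), *Hpgds*, a prostaglandin D synthase (2.53, SE 0.26, 0.00233), *Tbxas1*, thromboxane synthase (1.89, SE 0.17, 0.00123), and *Kctd12* (1.50, SE 0.12, 0.000891). *Plcb2*, *Hpgds* and *Tbxas1* are known in leukocytes too, so these 4 lists are not free of leukocyte genes. Of the 10 genes set apart as shared with leukocytes 9 rose, with a median of 1.79. Among them were *Cd300lf* (2.72, SE 0.18, adjusted p = 0.000417 by edgeR), *Fyb* (2.40, SE 0.17, 0.000435) and *Ptprc*, which encodes CD45 (1.71, SE 0.15, 0.00124). Without control 7 these counts were 5 of 28 and 9 of 10, with medians of 0.59 and 1.89.

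By role, 1 of 6 tested genes of taste-type signaling, 2 of 6 eicosanoid enzymes, 0 of 5 transcription factors and coactivators and 1 of 11 other tuft cell genes rose. Of all genes tested 2.77% rose. Values for the factors were −0.41 (SE 0.36) for *Spib* and 0.40 (SE 0.35) for *Hmx3*, and *1810046K07Rik*, at 550.0, 280.3 and 255 normalized counts in controls and 413 and 356 in IMQ libraries, had 0.090 (SE 0.35, adjusted p = 0.962 by edgeR). The sum of 7 epithelial markers was 460614 to 617643 in controls and 388284 and 449098 in IMQ libraries, with no marker at 0 and 0 of 7 called. The sum of 5 markers of the proximal small intestine, most of it *Apoa4*, was 142484 to 487281 in controls and 821505 and 1320990 in IMQ libraries, with none at 0 and 0 of 5 called. *Apoa4*, *Fabp1*, *Ada* and *Onecut2* lay above the controls in both IMQ libraries, and *Gata4* overlapped (6781 to 7531 in controls, 6237 and 7914). Of 5 distal markers 4 had a negative log2 fold change (median −0.85, 0 of 5 called), of which *Osr2* and *Guca2a* lay below the controls in both IMQ libraries, and their sum overlapped (59036 to 67624 in controls, 61679 and 77059). Whether the libraries came from the same stretch of intestine was not tested.

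**Figure D4:**
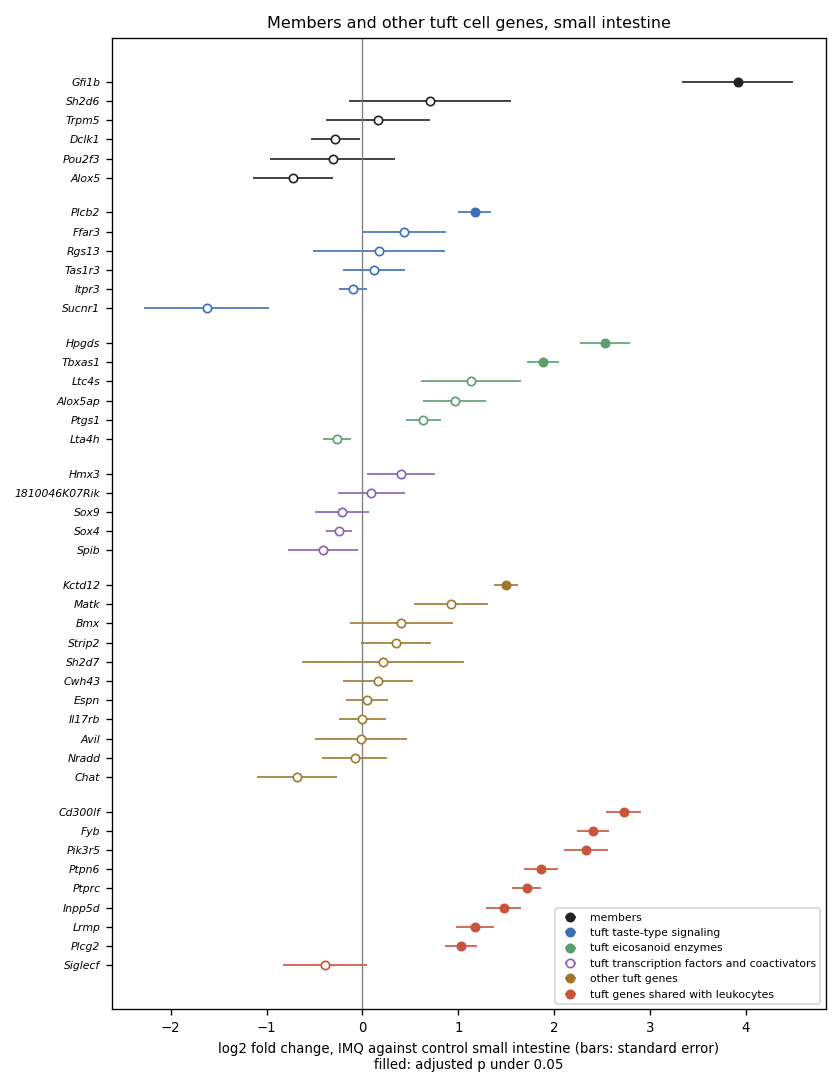
Log2 fold change of IMQ against control small intestine (points, with standard errors as bars) for the 6 members tested and genes of 5 tuft cell lists, with filled points for an adjusted p under 0.05. *Gfi1b* is the filled member. Filled are 4 of 28 genes outside the list set apart as shared with leukocytes, and 8 of the 9 shown from that list.

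The circuit on which IL-25 acts was measured by 18 further genes. Of the 13 tested in the small intestine 0 were called by edgeR and the median log2 fold change was 0.0655. The 2 largest values were 1.33 (SE 0.59, unadjusted p = 0.0572, adjusted p = 0.43) for *Areg*, the growth factor amphiregulin, and 0.60 (SE 0.24, unadjusted p = 0.0374, adjusted p = 0.351) for the leukotriene receptor gene *Cysltr2*. *Il13*, *Il5* and *Il9*, the cytokines of group 2 lymphoid cells, were at 0 in all 5 libraries. *Il17rb*, a subunit of the IL-25 receptor, had 123 to 130.1 normalized counts in controls and 136 and 116 in IMQ libraries, which overlapped. The sum of 5 goblet cell markers was 285151 to 341587 in controls and 274943 and 271295 in IMQ libraries, with 0 of 5 called.

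Skin served as the contrast. Of the 4 members with counts in every control library, *Pou2f3*, *Dclk1* and *Alox5* were lower in control small intestine than in control skin and *Sh2d6* was not called, where 53.5% of 23624 genes were called (25.9% as higher and 27.6% as lower in small intestine). *Pou2f3* had 4412, 5450.2 and 2821 normalized counts in skin controls 1 to 3, far above the 44.5 or fewer of the small intestine, and on the CPM scale was 199 times as high (log2 difference, small intestine minus skin, −7.22, SE 0.60, adjusted p = 1.31e-04 by edgeR). *Dclk1* was 9.36 times as high in skin (−2.76, SE 0.22, adjusted p = 1.15e-04) and *Alox5* 4.40 times (−1.70, SE 0.41, adjusted p = 0.0115). For *Gfi1b* (0.60, SE 0.94, adjusted p = 0.629) and *Sh2d6* (1.59, SE 0.98, adjusted p = 0.215) the tissues did not differ beyond the spread between replicates.

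*Trpm5*, like *Gfi1b*, passed the filter only through the small intestine. As *Trpm5* is high there, a difference was to be seen, and its level is given as a description. It had 7.23 ± 3.74 CPM (SD, n = 3) in control small intestine, and 0 counts in 5 of 6 skin libraries. Against the floor of 3 counts per library in skin controls 1 and 3 it was at least 126-fold higher. Skin control 2 had 5 counts of *Trpm5* (exact Poisson interval at 95% of 1.62 to 11.7, counting error only). That library also held a median of 0.872% of the control small intestine level over 138 genes that the other 5 skin libraries nearly lack, and at this share 2.88 counts of *Trpm5* would come with it. Its 21 counts of *Il25* have no counterpart in the small intestine, where *Il25* was at 0. The source of the *Trpm5* and *Il25* counts in this library was not tested.

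The tuft cell genes were not absent from skin as a group. Between control tissues, 8 of the 31 tested genes of the 4 lists outside the leukocyte-shared one were higher in small intestine and 12 were lower. Of all genes tested 25.9% were called higher there and 27.6% lower. Some of the 31 passed the filter only through the tissue where they are high. Examples are *1810046K07Rik* and *Hmx3* in small intestine, and *Gnb3*, *Gng13* and *Tas1r1* in skin. The same filter was used for the shares over all genes, so these counts are given as a description. *1810046K07Rik*, *Hmx2* and *Hmx3* were at 0 in all 6 skin libraries, and *Trpm5* in 5 of them. Other genes, chosen after their values were seen, had counts in skin, such as *Avil* (93.2 to 263 normalized counts in skin controls, 106 to 308 in small intestine controls) and *Il17rb* (117 to 193 and 123 to 130.1). POU2F3 is also known in the upper epidermis. The sum of 6 keratinocyte markers was 534727 to 1139350 in skin controls and 887054 to 1627280 in IMQ skin, and the part of keratinocytes in the *Pou2f3* level of skin was not tested.

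None of the 4 members tested in the skin was called by edgeR, where 6.74% of 20512 genes were, although *Dclk1* and *Sh2d6* had an unadjusted p under 0.05 and DESeq2 called both (adjusted p = 0.00736 and 0.0394). *Dclk1* had 2677, 2173 and 3426 normalized counts in controls 1 to 3, and 1536, 1494 and 1855 in IMQ 4 to 6. All IMQ libraries lay below the controls, as was so for 13.3% of all genes. The log2 fold change was −0.76 (SE 0.19, unadjusted p = 0.00483, adjusted p = 0.0604), and it was −0.90 without control 2 (adjusted p = 0.0209).

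*Sh2d6* in the skin had 15.4, 8.72 and 47.1 normalized counts in controls 1 to 3, and 57.9, 69.9 and 101 in IMQ 4 to 6. All IMQ libraries lay above the controls, as was so for 15.1% of all genes, and control 3 came close to them. The log2 fold change was 1.66 (SE 0.59, unadjusted p = 0.026, adjusted p = 0.152 by edgeR), and 2.62 without control 3 (adjusted p = 0.0298). *Pou2f3* (−0.18, SE 0.24, adjusted p = 0.708) and *Alox5* (0.22, SE 0.28, adjusted p = 0.687) overlapped between the groups. *Gfi1b*, at 15.4, 0 and 8.72 normalized counts in controls and 18.6, 14.4 and 22.3 in IMQ libraries, was not tested under the filter and had 1.16 (SE 0.91, adjusted p = 0.524) without it.

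An interaction term, fitted over the 11 libraries, was used to ask whether a member responded differently in the 2 tissues. By edgeR 0 of 6 members were called, where 1.54% of 22369 genes were, and 1 had an unadjusted p under 0.05. That was *Gfi1b*, whose change in small intestine minus that in skin was 2.77 on the log2 scale (SE 1.12, unadjusted p = 0.0331, adjusted p = 0.278), while limma on log2(FPKM + 1) called it (0.97, adjusted p = 0.0474). The rise of *Gfi1b* was therefore not shown by edgeR to be particular to the small intestine. Of 39 other tuft cell genes tested 0 were called. *Trpm5* and *Gfi1b* passed the filter only through the small intestine, as some of the 39 passed through a single tissue. For *Trpm5*, at 0 in most skin libraries, there was hardly a skin response to compare, so its lack of a call does not show a like response.

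In the skin 4.05% of all genes tested rose and 2.69% fell. Of 24 tested tuft cell genes outside the leukocyte-shared list, *Alox5ap*, the partner of ALOX5 (log2 fold change 1.05, SE 0.20, adjusted p = 0.0288 by edgeR), and *Rgs13* (2.11, SE 0.36, 0.0226) rose. *Sox9*, known in the hair follicle, fell (−1.09, SE 0.23, 0.0416). Of 10 genes of the shared list 8 rose. The shared ones that rose numbered 2 without control 1, IMQ 4, IMQ 5 or IMQ 6, and the others 0 without control 1, control 3, IMQ 5 or IMQ 6. The sum of 6 neutrophil markers was 795 to 1154 in skin controls and 179525 to 225901 in IMQ skin, with 5 of 5 tested called higher. That of 9 mast cell markers was 8148 to 9947 in skin controls and 12935 to 16669 in IMQ skin. Of the 7 mast cell markers tested 4 were called higher and 0 lower. The part of neutrophils and mast cells in the changes of *Alox5ap* and *Rgs13* was not tested. In the IL-25 circuit 4 of 15 rose and 1 fell by edgeR. The epithelial cytokine genes *Tslp* (2.89, SE 0.29, adjusted p = 0.00445) and *Il33* (2.04, SE 0.29, 0.0122) and the receptor gene *Il4ra* (0.90, SE 0.16, 0.0262) were higher, and *Gata3* was lower (−0.84, SE 0.12, 0.0122). The changes of *Tslp*, *Il33* and *Gata3* differed between the tissues (interaction, adjusted p = 0.0226, 0.0181 and 0.0201).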

How the data were processed

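RNA was sequenced as 100-base paired-end reads. Per the labels and methods, the authors trimmed the reads, aligned them to mm10 with HISAT2 2.1.0 and used StringTie 2.1.3b. They deposited whole-number read counts without normalization, FPKM and TPM per gene, and the TPM were not used. The counting step, its use of strand and its treatment of reads that match several genes are not given in the sources used here, so *Dclk1* and *Trpm5*, which overlap genes on the opposite strand, are uncertain to that extent.

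Genes detected (count 1 or more) in all libraries of a tissue (for the tissue comparison and the interaction, of at least 1 tissue) were normalized by relative log expression and tested with edgeR 4.0.16 in R 4.3.3, adjusted over all genes and called at 0.05, after a test on simulated data. The alternatives were TMM, DESeq2 1.42.0, limma 3.58.1 (voom, and log2(FPKM + 0.01) or log2(FPKM + 1)), other filters, 1 joint fit and each library left out. At 44995414 to 58526384 counts a library, 3 counts are 0.0513 to 0.0667 CPM. Groups follow the sample annotation. Nothing states that the samples were separate mice, so p-values measure only the spread between these samples. The text names all members and, of each list, up to 4 called genes with the smallest adjusted p or, with none called, the 2 largest changes, and other genes where it says so or as markers. Gene positions and promoters came from RefSeq and strands from GENCODE, all on GRCm38.p6, with no promoter for *Pou2f3* and *Il25*. Members and lists were chosen with earlier results of these data known. Some genes of the lists are counted but not reported by name here.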

Additional observations from a re-analysis of the deposited data

How the results depend on the processing

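The number of members called in the small intestine was 1, and 0 with limma on log2(FPKM + 1). Leaving out 1 library gave 0 to 2. In the skin it was 0, but 2 with DESeq2 and 1 in a joint fit of 11 libraries, and 0 to 1 with 1 library left out. The interaction called 0, and 1 with limma on log2(FPKM + 1). The control tissues differed in 4 members (4 to 5 with 1 library left out), where 53.5% of all genes were called. *Trpm5* is counted among them, although it passed the filter only through small intestine, where it is high, so that its call is a description. *Il25* was added in 1 fit, in which it passed only through skin. Tuft cell genes outside the leukocyte-shared list and called higher numbered 4 in the small intestine (3 to 5 with 1 library left out) and 2 in the skin (4 with DESeq2, 1 without a filter, 1 with limma on log2(FPKM + 1), 0 to 4 with 1 library left out). Shared ones numbered 9 (6 to 9) and 8 (5 with limma on log2(FPKM + 1), 2 to 8 with 1 library left out). The list alternatives were added after the data were seen. Some log2 changes that had not passed the test turned in direction. With 1 library left out in turn, the small intestine change of *Pou2f3* ran from −0.68 to 0.59 and that of *Trpm5* from −0.57 to 0.66, the skin change of *Pou2f3* from −0.41 to 0.049 (positive without control 2), the interaction from −0.49 to 0.78 for *Pou2f3* and from −1.90 to 0.68 for *Sh2d6*, and the difference of control tissues from −0.034 to 1.41 for *Gfi1b* and from −0.031 to 2.53 for *Sh2d6*. All of these turned without small intestine control 7, except the skin change and *Trpm5*, which turned without control 8 or IMQ 11, and the interaction of *Pou2f3* turned also without skin control 3 (0.13) or small intestine IMQ 10 (0.19). That interaction was 0.092 with limma-voom, and 0.13 and 0.15 with limma on log2(FPKM + 0.01) and log2(FPKM + 1). The cause of these differences was not tested. Over all genes, the calls of 588 in small intestine became 1206 with DESeq2, those of 1382 in skin 3030 with DESeq2 and 894 with limma on log2(FPKM + 1), and those of 344 in the interaction 1384 and 570. No paired analysis was possible because the annotation does not give which tissues came from the same mouse. The comparison of control tissues and the interaction therefore treated the libraries as unrelated. With 2 IMQ libraries of small intestine and members of under 50 counts, *Pou2f3*, *Gfi1b* in controls and *Il25* are limited by depth as well as by the spread between samples.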

Other observations

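The 5 genes whose levels over the 11 libraries were most like the mean profile of the 7 members, by the root mean square difference of centred log2(normalized count + 1), were *Rin3* (0.237), *Def8* (0.241), *Csf1r* (0.242), *LOC115490350* (0.243) and *Ccnd3* (0.2495). None of them is in a tuft cell list, and *Csf1r* is one of the macrophage markers. Because 3 of the members were higher in control skin and *Trpm5* in control small intestine, the likeness describes the mean profile and no single member.

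*Sucnr1*, the succinate receptor gene, had 53.2, 28.2 and 12.0 normalized counts in controls 7 to 9 and 10.9 and 8.87 in IMQ 10 and 11 of the small intestine. Both IMQ libraries lay below the lowest control, as was so for 13.9% of all genes tested. The raw counts were low, at 13 in control 9 and 12 and 8 in IMQ 10 and 11. The log2 fold change of *Sucnr1* was −1.62 (SE 0.65, adjusted p = 0.364 by edgeR). It was chosen after its values were seen. *Gnat3*, the taste-type G protein subunit, was at 0 in all libraries other than IMQ 11 (4.44).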
